A study of Mus musculus with 6 samples.

Results

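Fos, Jun, Junb, Jund, Egr1, Atf3, Ier2, Ier3, Btg2 and Dusp1 are 10 immediate early genes, taken by symbol from the 15565 genes of the count table, and all 10 were among the 13288 genes that passed the expression filter. They were measured in hepatocytes of 3 C57BL/6 mice, 2 months old, of the genotype Tert(CreERT2/+); R26(LSL-Tomato/+). A collagenase perfusion freed the hepatocytes, which were sorted as TERT(High) or TERT(Low), and each mouse gave 1 library of each kind, so that 2 groups of 3 libraries come from the same 3 animals. All 6 libraries therefore share the allele that puts CreERT2, a recombinase that tamoxifen activates, at 1 copy of Tert, and the Tomato reporter that Cre switches on at 1 copy of R26. The labels used here give neither a tamoxifen treatment nor the gate that separated the cells. Every library passed through perfusion and sorting, and no sample of intact liver was analysed here, so the level before isolation was not measured.

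Immediate early genes are transcribed within minutes of a stimulus, with no need for new protein, when kinases of the ERK, JNK and p38 families and cyclic AMP act on factors already bound at their promoters. Their mRNAs are short-lived, because AU-rich stretches in the 3′ UTR recruit decay factors. In liver they are known for the first wave after partial hepatectomy, and the enzymatic release of cells from a tissue is a well-known trigger as well. Fos, Jun, Junb, Jund and Atf3 belong to the leucine-zipper proteins that pair as the factor AP-1 or bind related sites. Egr1 is a zinc-finger activator, Ier2 and Ier3 are small early response proteins, Dusp1 is a phosphatase that switches off the kinases, and Btg2 binds the CCR4-NOT deadenylase and restrains proliferation.

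The promoters of Fos, Dusp1 and Btg2 are shown because Fos had the widest and Btg2 the narrowest spread between libraries, while Dusp1 and Btg2 share the same full cyclic AMP element. They are the last 200 bases before the start in the RefSeq promoter table (GRCm38.p6), at chr12:85473690-85473889 on the plus strand for Fos, chr17:26508473-26508672 on the minus strand for Dusp1 and chr1:134079156-134079355 on the minus strand for Btg2. Capitals mark TGACG, the core of the cyclic AMP element, together with TATAA and CCAAT, each on either strand.
Fos: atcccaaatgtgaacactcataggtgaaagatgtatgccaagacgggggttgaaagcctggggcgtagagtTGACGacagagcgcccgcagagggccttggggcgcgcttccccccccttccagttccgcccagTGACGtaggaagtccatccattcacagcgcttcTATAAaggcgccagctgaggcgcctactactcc
Dusp1: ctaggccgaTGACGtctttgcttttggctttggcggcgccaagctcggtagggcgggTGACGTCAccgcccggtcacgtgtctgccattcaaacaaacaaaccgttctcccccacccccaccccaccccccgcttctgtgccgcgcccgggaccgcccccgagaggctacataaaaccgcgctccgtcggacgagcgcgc
Btg2: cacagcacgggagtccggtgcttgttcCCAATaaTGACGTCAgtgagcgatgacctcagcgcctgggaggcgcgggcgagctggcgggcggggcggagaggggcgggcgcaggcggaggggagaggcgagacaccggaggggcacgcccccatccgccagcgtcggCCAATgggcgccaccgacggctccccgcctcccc

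Of the 10 genes 8 were searched, all except Egr1 and Ier2, in the 250 bases before each start and on both strands. TGACG was found in 5 of the 8 (Atf3, Btg2, Dusp1, Fos and Junb), and in 17.8% of all 32851 promoters of the table. The full TGACGTCA, which contains TGACG, was in Dusp1 and Btg2, and in 1.55% of all promoters. GGGCGG, the letters of a GC box, was in 6 of the 8 (32.7% of all), CCAAT in 4 (33.8% of all) and TATAA in 2 (22.8% of all). The AP-1 site TGANTCA and the CArG box, the site of serum response factor, were in 0 of these windows, against 6.75% and 1.47% of all promoters. Such a match of letters describes the window and shows no binding. Bases further upstream were not searched, so a site absent from the window may still lie outside it.

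The 3′ UTRs share a second feature, the pentamer ATTTA, which is the DNA form of the AU-rich decay element. It was present in the 3′ UTR of 9 of the 10 genes, all except Ier2, on the GENCODE M21 transcript with the longest coding sequence, and in 65.6% of tested genes that have a 3′ UTR there. The median density was 2.89 per kb of 3′ UTR in these genes and 1.20 in all tested genes. Btg2, which had the narrowest spread, held 5 pentamers, as many as Ier3, and a link of the pentamer to spread was not tested. The sites of Fos, Dusp1 and Ier3, the densest of the set, are set beside that of Jund, which held a single pentamer and had a narrow spread. The windows lie at chr12:85477104-85477127 (plus strand), chr17:26506159-26506182 (minus strand), chr17:35822493-35822516 (plus strand) and chr8:70700362-70700385 (plus strand) on GRCm38, and capitals mark ATTTA.
Fos: gttttcaATTTATTTAttaagatg
Dusp1: ggtccttATTTATTTAacaccccc
Ier3: ATTTAtgtATTTAtgtatatcctc
Jund: ttccgccctATTTAtgtttctact

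These genes are also compact. Jun, Junb, Jund and Ier2 consist of 1 exon, as do 2.22% of all tested genes, and the median transcript length was 1987 nt against 2962.5 nt for all tested genes. The comparison of the groups was also fitted with a term for these features: of the 12548 tested genes with a GENCODE transcript, edgeR called 0 with transcript length and GC content in the fit together, and 8.14% of all 13288 genes without them. Length alone was not fitted.

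Library totals ran from 53585174 to 76164917 counts. Tert, which checks the labels, had 38, 33 and 30 counts in TERT(High) and 21, 21 and 12 counts in TERT(Low) libraries of mice 1, 2 and 3, groups that did not overlap, though its log2 ratio of 0.87 (SE 0.44) had an edgeR adjusted p of 0.249. The sum of 9 hepatocyte markers, most of it Alb, was 89510 to 113860 CPM, the usual scaling of a count to its library's size, here with TMM factors (edgeR's trimmed mean of M-values). Asgr1, a hepatocyte receptor for glycoproteins, was lower in TERT(High) cells (441 ± 67.2 against 724 ± 51.4 CPM, log2 ratio -0.71, SE 0.16, edgeR adjusted p = 0.0485, and 0.515 with the length and GC term). Apoa1, Ttr and Apoh were below TERT(Low) in all TERT(High) libraries and Alb above, without passing the threshold in edgeR. For the rest of the list the groups overlapped. Cps1, Hnf4a and Fgb were at log2 ratios of 0.57 (SE 0.38), 0.44 (SE 0.30) and 0.10 (SE 0.24) in edgeR. Tat was at -0.50 (SE 0.46), so the markers shared no direction. Of all genes, 33.4% had groups that did not overlap. With DESeq2, a second tool, Apoa1, Ttr and Apoh passed (adjusted p of 0.00187, 0.00521 and 0.00105) and Alb did not (0.134). In libraries of many cells, fewer cells of a type and less RNA per cell cannot be told apart. Levels below are in CPM, listed for mice 1, 2 and 3, and SD is over the 3 libraries of a group.

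Fos, which pairs with Jun proteins to form AP-1, had the widest range of all 10 genes (chromosome 12, 85473890 to 85477274, mm10). It stood at 63.5, 42.4 and 8.65 CPM in TERT(High) and at 63.5, 98.0 and 2.28 CPM in TERT(Low) cells. Both libraries of mouse 3 were the lowest of their group, the groups overlapped fully, and the highest library held 43.1 times the level of the lowest. The group means were 38.2 ± 27.7 and 54.6 ± 48.5 CPM (SD, n = 3), and edgeR gave -0.52 (SE 1.18, adjusted p = 0.804) as the log2 ratio of TERT(High) to TERT(Low). The drop in mouse 3 was seen inside each library too: the count of Fos per count of Jund was 0.693, 0.431 and 0.0830 in TERT(High) and 0.660, 0.910 and 0.0323 in TERT(Low) cells.

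Jun, the partner of Fos, varied less (chromosome 4, 95049036 to 95052222). Its level was 36.1, 35.8 and 27.1 CPM in TERT(High) and 40.9, 32.3 and 13.8 CPM in TERT(Low) cells, with the TERT(Low) library of mouse 3 apart from the other 5. Its log2 ratio in edgeR was 0.18 (SE 0.38), with an adjusted p of 0.780.

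Junb, a weaker activator that can oppose Jun, was also lowest in mouse 3 of each group (chromosome 8, 84976909 to 84978748). It measured 25.7, 25.3 and 11.2 CPM in TERT(High) and 43.5, 34.3 and 8.63 CPM in TERT(Low) cells. In mice 1 and 2 the TERT(Low) library was the higher of the pair, and in mouse 3 the lower. edgeR put the log2 ratio at -0.48 (SE 0.60), with an adjusted p of 0.645.

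Jund, the Jun protein that cells keep at a steady level without a stimulus, was the most abundant and one of the steadiest (chromosome 8, 70697739 to 70700616). Its levels were 91.7, 98.5 and 104 CPM in TERT(High) and 96.2, 108 and 70.6 CPM in TERT(Low) cells. Apart from the TERT(Low) library of mouse 3, all were within 91.7 to 108 CPM. At a log2 ratio of 0.10 (SE 0.19), edgeR's adjusted p was 0.752.

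Atf3, a stress-induced leucine-zipper repressor, was low in all libraries (chromosome 1, 191170296 to 191183333). TERT(High) libraries held 6.19, 3.75 and 4.58 CPM and TERT(Low) libraries 7.44, 5.29 and 2.14 CPM. The TERT(Low) group thus contained both the highest and the lowest library, and its SD of 2.66 CPM was above the 1.24 CPM of TERT(High). In edgeR the log2 ratio came to -0.04 (SE 0.45), adjusted p = 0.968.

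Egr1, induced through serum response factor, was also low in mouse 3 (chromosome 18, 34861207 to 34864956). Its values were 26.8, 37.2 and 13.6 CPM in TERT(High) and 20.8, 40.5 and 4.65 CPM in TERT(Low) cells. Mouse 2 was the highest and mouse 3 the lowest in either group. Between the groups the log2 ratio was 0.23 (SE 0.73), with an edgeR adjusted p of 0.858.

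Ier2, a nuclear early response protein, ranged from 15.4 to 39.0 CPM (chromosome 8, 84661331 to 84662852). TERT(High) libraries were at 21.8, 32 and 19.7 CPM and TERT(Low) libraries at 35.5, 39.0 and 15.4 CPM. The groups overlapped, and edgeR gave a log2 ratio of -0.29 (SE 0.37) with an adjusted p of 0.650.

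Ier3, a regulator of survival signalling, had the lowest counts of the 10 (chromosome 17, 35821713 to 35822911). It had 31, 27 and 21 counts in TERT(High) and 78, 60 and 6 counts in TERT(Low) libraries. The 3 TERT(High) libraries lay between the low value of mouse 3 and the high values of mice 1 and 2 in TERT(Low) cells. Its log2 ratio of -0.82 (SE 0.79) came with an edgeR adjusted p of 0.549.

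Dusp1, the phosphatase that ends ERK, JNK and p38 signalling, had the largest difference between the groups (chromosome 17, 26505591 to 26508472). It stood at 48.4, 22.8 and 22.0 CPM in TERT(High) and at 80.3, 92.6 and 16.7 CPM in TERT(Low) cells. The TERT(Low) libraries of mice 1 and 2 lay above all 3 TERT(High) libraries, and the TERT(Low) library of mouse 3 below all of them. Means were 31.1 ± 15 and 63.2 ± 40.7 CPM (SD, n = 3), and edgeR estimated a log2 ratio of -1.02 (SE 0.64), adjusted p = 0.349.

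Btg2, the antiproliferative binder of CCR4-NOT, was the one gene with a lower level in TERT(High) cells of all 3 mice (chromosome 1, 134074865 to 134079155). Levels were 24.2, 26.7 and 22.5 CPM in TERT(High) and 31.0, 36.7 and 24.8 CPM in TERT(Low) cells. The groups still overlapped, since TERT(High) of mouse 2 was above TERT(Low) of mouse 3. edgeR estimated its log2 ratio at -0.33 (SE 0.18), with an adjusted p of 0.284.

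**Figure D1:**
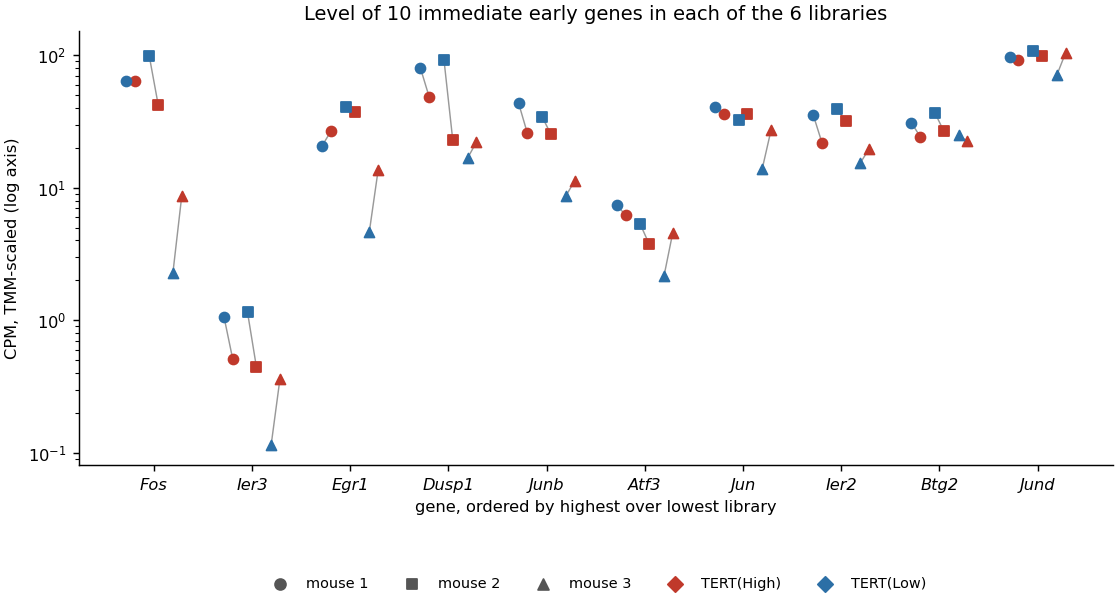
Level of each of the 10 genes in CPM (log axis) in the TERT(High) (red) and TERT(Low) (blue) library of mouse 1 (circles), mouse 2 (squares) and mouse 3 (triangles); grey lines join the 2 libraries of a mouse, and 1 point is 1 library. Fos runs from 2.28 to 98.0 CPM and Jund from 70.6 to 108 CPM, and the lowest point of every gene is a triangle.

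Compared per length of transcript, Jund had the highest level, with a mean of 56.8 ± 7.90 CPM per kb (SD over all 6 libraries, which pools both groups), though its lowest library, at 42.3, was below the highest libraries of Dusp1 and Fos, both at 46.5. Dusp1 (23.7 ± 16.4), Fos (22.0 ± 17.3), Ier2 (17.9 ± 6.29) and Junb (13.7 ± 7.36 CPM per kb) followed, and each differed from the next by less than their SDs. Btg2 and Jun came next at 10.1 ± 1.93 and 9.72 ± 3.0, and they too differed by less than the spread. Egr1 (5.34 ± 3.07), Atf3 (2.47 ± 0.937) and Ier3 (0.536 ± 0.362 CPM per kb) were the lowest.

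The design asks whether hepatocytes of high and low Tert differ, and for these 10 genes no difference between TERT(High) and TERT(Low) cells was detected. The quasi-likelihood test of edgeR, adjusted over all genes by Benjamini-Hochberg, called 0 of the 10, against 8.14% of all genes tested (4.43% higher and 3.71% lower). Before adjustment, p was under 0.05 for 0 of the 10 in the same test, against 28.7% of all genes. DESeq2 called 0 (25.2% of all genes with an adjusted p, which Ier3 lacked), limma-voom with sample weights 0 (18.5% of all genes), and edgeR with the mouse as a block 0 (9.72% of all genes, 4.3% lower). The authors' deposited table lists 9 of the 10 genes, all except Ier3, with 0 at an adjusted p under 0.05 (29.2% of its genes, 13.4% lower). Dusp1 came nearest in the authors' deposited table, at a log2 value of -0.74 (SE 0.32) and an adjusted p of 0.0693.

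Log2 fold changes were negative for 7 genes and positive for 3, with a median of -0.31 against -0.01 for all genes tested. That median was -0.06 once the mouse was a block, -0.01 with the term for length and GC content, and 0.22 with both. The 3 values of each group overlapped for all 10 genes, whereas the groups did not overlap for 33.4% of all genes. In the fit of the group alone SEs ran from 0.18 for Btg2 to 1.18 for Fos. For Fos that fit could not detect a difference of the size it estimated. With the mouse as a block the log2 ratio of Fos was 0.16 (SE 0.61, edgeR adjusted p = 0.875). In that fit Dusp1 was at -0.79 (SE 0.48), Egr1 at 0.58 (SE 0.34) and Junb at -0.28 (SE 0.25). Their edgeR adjusted p were 0.315, 0.306 and 0.472.

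Within mice the direction was not shared. In mouse 1 TERT(High) was lower than TERT(Low) for 8 of the 10 genes and in mouse 2 for 9, with median log2 differences of -0.31 and -0.45. In mouse 3 it was higher for 9 of the 10, all except Btg2, with a median of 0.77. Over all genes tested the median differences were -0.08, 0.01 and 0.10. Fos had log2 differences of 0.00, -1.21 and 1.91 in mice 1, 2 and 3, and Dusp1 of -0.73, -2.02 and 0.40. Junb, Jund, Atf3, Ier2, Ier3 and Dusp1, 6 of the 10 genes, were lower in mice 1 and 2 and higher in mouse 3, a pattern that 7.55% of all genes showed. This pattern was looked for after the values had been seen, and whether the difference itself varies between mice could not be tested with 1 pair of libraries a mouse.

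**Figure D2:**
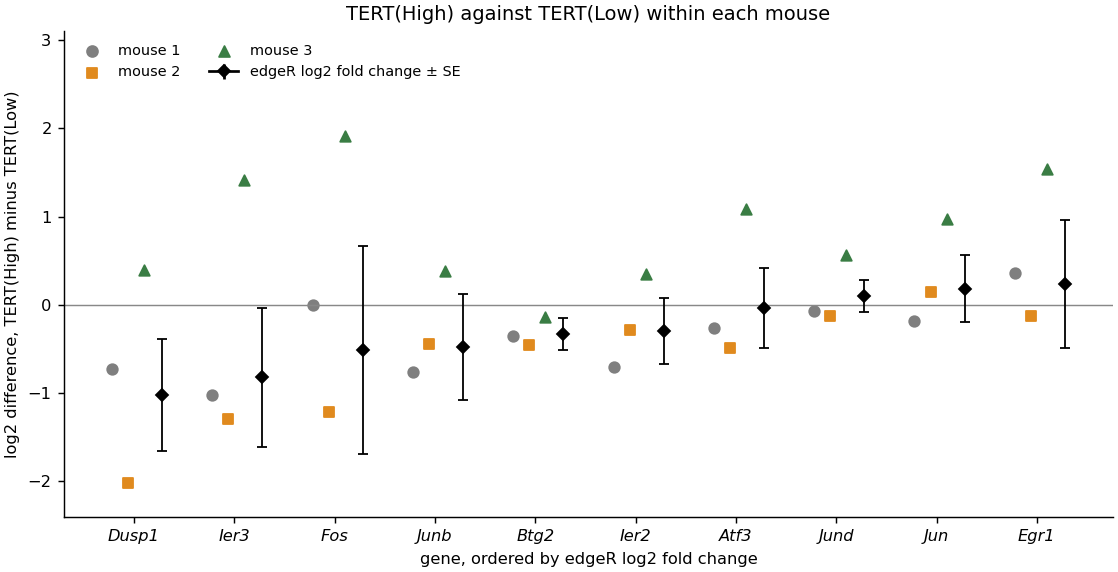
Difference in log2 CPM between TERT(High) and TERT(Low) libraries of mouse 1 (grey circles), mouse 2 (orange squares) and mouse 3 (green triangles) for each gene, with edgeR's log2 fold change ± SE (black). Mouse 3 is above 0 for 9 of the 10 genes, and 9 of the 10 are below 0 in mouse 2.

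With mouse 3 left out, a setting looked at because its libraries stood apart, most SEs were smaller. Dusp1 had a log2 ratio of -1.28 (SE 0.41), Ier3 of -1.22 (SE 0.44) and Junb of -0.62 (SE 0.24), with edgeR adjusted p of 0.312, 0.323 and 0.334. Fos was at -0.61 (SE 0.33, edgeR adjusted p = 0.420). Jun, Jund and Egr1 stayed within 0.11 of 0 on the log2 scale, at -0.04, -0.11 and 0.06. With these 4 libraries edgeR called 0% of all genes, so its 0 of 10 says nothing about these genes. Before adjustment p was under 0.05 for 3 of the 10 (Dusp1, Ier3 and Junb) and for 14.8% of all genes. DESeq2 on the same libraries, a setting added later, called 0 of the 10 and 3.46% of all genes, with an adjusted p of 0.0851 for Dusp1.

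The spread between replicate libraries was wide for most of these genes. The SD of log2 CPM within groups was 2.35 for Fos, 1.24 for Egr1, 1.22 for Ier3, 1.07 for Dusp1 and 1.01 for Junb. Atf3, Jun and Ier2 followed at 0.70, 0.61 and 0.58, and Jund and Btg2 were at 0.23 and 0.22. The median over the 10 was 0.85, against 0.33 over all genes tested. Among genes within 1 log2 unit of the same mean level, the SD of Fos was at percentile 99.97, and those of Egr1, Dusp1 and Junb were at 99.4, 99.0 and 98.7. Jun, Ier2 and Atf3 also lay above the 90th percentile, so that 7 of the 10 did. Ier3, among genes of similarly low counts, was at 82.9, and Jund and Btg2, at 47.4 and 42.1, lay near the middle. No test was made of these ranks.

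**Figure D3:**
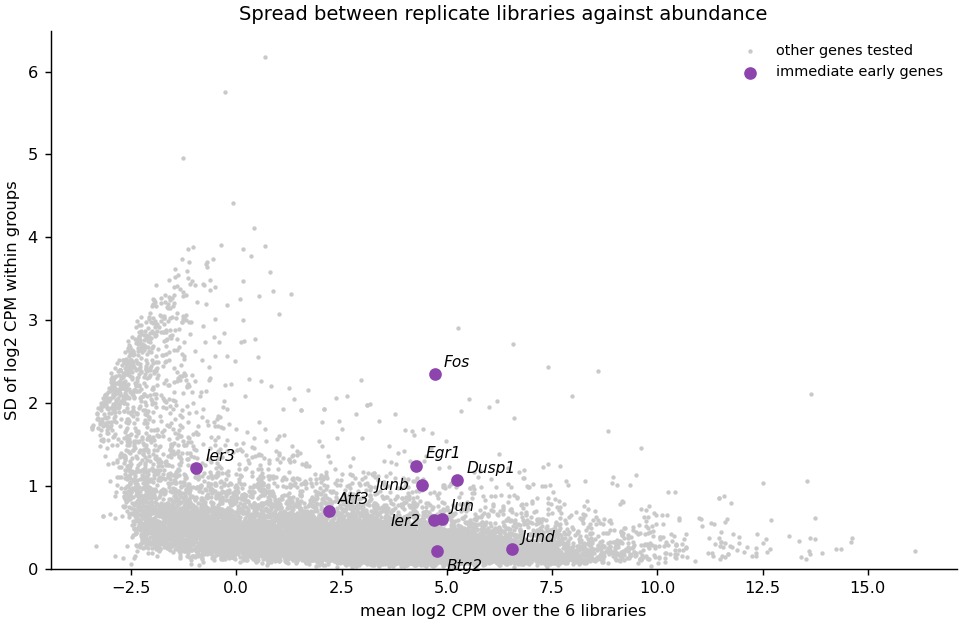
Within-group SD of log2 CPM (vertical) against mean log2 CPM over the 6 libraries (horizontal) for the 10 genes (purple) and the other genes tested (grey), 1 point a gene. Fos, at 2.35, is above nearly all genes of its abundance, and Jund and Btg2, at 0.23 and 0.22, lie within the grey band.

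The spread was wider in TERT(Low) than in TERT(High) cells, with median SDs of 1.09 and 0.37 over the 10 genes, against 0.30 and 0.32 over all genes. It rested on mouse 3: without both its libraries the median SD was 0.23 for the 10 genes and 0.32 for all genes. Without its TERT(Low) library alone the median of the 10 genes was 0.33. Mouse 3 was left out because these genes stood apart in it, so their fall in SD does not place them below other genes. The SD of Fos went from 2.35 to 0.42, of Junb from 1.01 to 0.21 and of Ier3 from 1.22 to 0.11 without mouse 3. Dusp1 and Egr1 kept SDs of 0.57 and 0.50.

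The variation was also split between mice, with 2 of the 5 degrees of freedom, and groups, with 1, so that a larger share between mice is no test of a larger effect. Of the sum of squares of log2 CPM over the 6 libraries, a median of 65.6% lay between mice for the 10 genes and 6.33% between the groups, whereas for all genes the medians were 36.6% and 33.0%. The share between mice was 89.1% for Junb, 88.5% for Fos and 81.2% for Egr1, and lowest for Jund at 29.3%. For Btg2 the shares were 47.9% between mice and 44.4% between groups. The TERT(Low) library of mouse 3 was the lowest of the 6 for 9 genes, which held for 19.2% of all genes, and for Btg2 the TERT(High) library of mouse 3 was. The mean log2 CPM of mouse 3 was below that of mice 1 and 2 for all 10 genes, as for 49.1% of all genes, by 3.84 for Fos, 1.92 for Egr1, 1.67 for Junb, 1.66 for Ier3, 1.48 for Dusp1, and from 0.20 for Jund to 0.90 for Jun in the rest.

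A test of the mouse in the model with group and mouse, added after these values were seen, called 0 genes in all by edgeR, and 0 of the 10 with it (0% of genes). Unadjusted p-values under 0.05 came for 4 of the 10 genes and 13.3% of all genes: 0.00623 for Junb, 0.0104 for Egr1, 0.0131 for Fos and 0.0453 for Ier2 in edgeR's test, with adjusted p from 0.241 to 0.370.

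**Figure D4:**
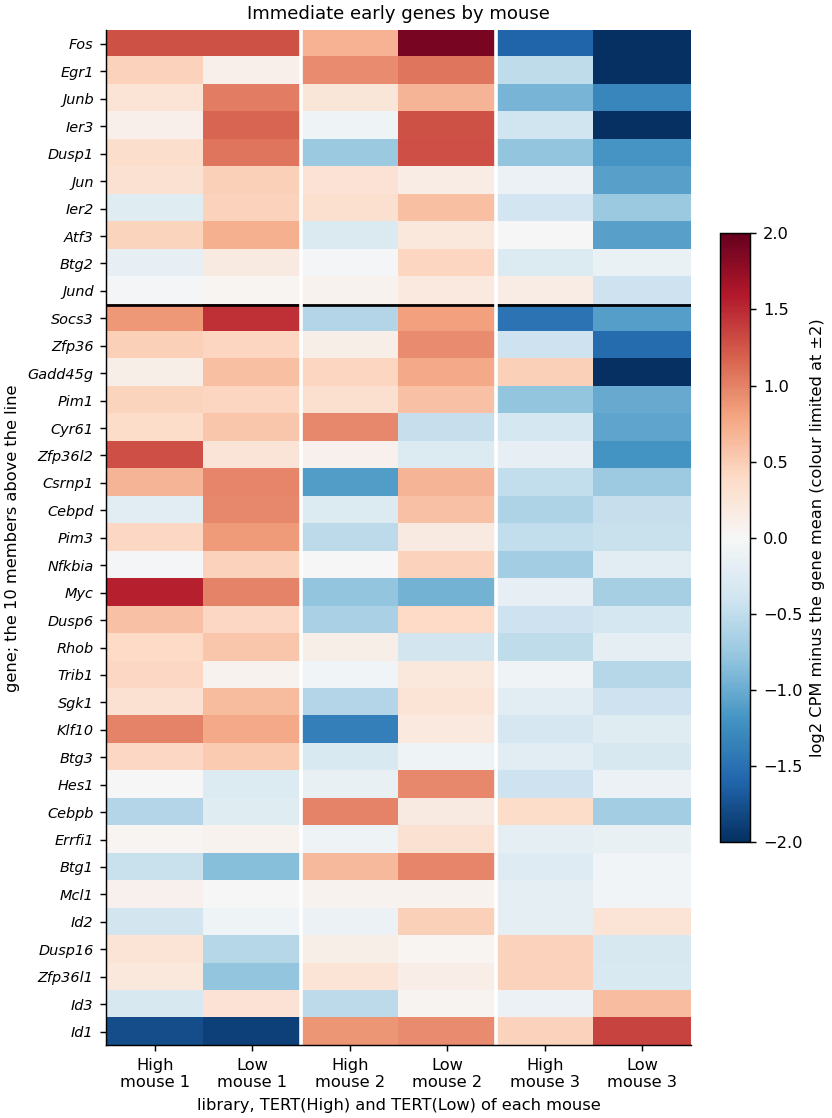
log2 CPM minus the mean of each gene (colour, limited at 2 in each direction) in the TERT(High) and TERT(Low) libraries of mice 1, 2 and 3, for the 10 genes (above the line) and 27 further immediate early genes of at least 5 CPM in a group (below). Both mouse 3 columns are mostly blue for the 10 genes. Of the 27 further genes 22 are also lower in mouse 3 than in mice 1 and 2, against 49.1% of all genes tested.

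Further immediate early genes gave the same count of calls, 0, against 8.14% of all genes tested. Of 14 tested transcription regulators of the early response 0 passed edgeR's threshold (median log2 fold change -0.45), with Id2 and Id3, inhibitors of helix-loop-helix factors, at -0.47 (SE 0.18) and -0.65 (SE 0.20) and adjusted p of 0.148 and 0.0829. Id3 was at 38.5, 33.7 and 44.3 CPM in TERT(High) and 58.6, 50.3 and 74.2 CPM in TERT(Low) cells, groups that did not overlap and in which mouse 3 was the highest. Id3 passed with the mouse as a block (edgeR adjusted p = 0.0446) and in DESeq2 (adjusted p = 0.0155). With the length and GC term the log2 ratio was -0.23 for Id3 and 0.045 for Id2 (edgeR adjusted p of 0.662 and 0.930). Of 31 tested feedback and signalling genes 0 passed (median -0.09), among them Errfi1, an inhibitor of EGF receptor signalling, at -0.16 (SE 0.17, edgeR adjusted p = 0.592). Zfp36, whose protein tristetraprolin binds AU-rich elements, had 65.1, 50.8 and 35.2 CPM in TERT(High) and 63.1, 89.8 and 16.1 CPM in TERT(Low) cells, the order of mice seen for Fos in either group. These feedback genes were lower in mouse 3 in 24 of 31 cases, with a median of -0.47, and the transcription regulators in 8 of 14, with a median of -0.32. Over all genes tested 49.1% were lower in mouse 3, with a median of 0.01, and the 8 of 14 was near that share.

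Other leucine-zipper genes of the AP-1 family had 1 of 10 higher, Maf, at 2.92 ± 0.721 against 1.28 ± 0.132 CPM (log2 ratio 1.19, SE 0.26, edgeR adjusted p = 0.0441, and 0.0511 with the mouse as a block), and 0 lower. Of all genes tested 4.43% were called higher and 3.71% lower. Fosb, a close relative of Fos, chosen after its values were seen, was at 2.25, 0.694 and 0.154 CPM in TERT(High) and 2.36, 2.06 and 0.266 CPM in TERT(Low) cells. It too was lowest in mouse 3 of either group, by 2.84 in mean log2 CPM.

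Kinases and promoter-bound factors upstream of the early response had 1 of 28 higher, the acetyltransferase Ep300, at 8.31 ± 3.59 against 2.10 ± 0.387 CPM (log2 ratio 1.99, SE 0.38, edgeR adjusted p = 0.0346), and 0 lower, with a median of 0.30. Over all genes tested edgeR called 4.43% higher and 3.71% lower, and the 1 of 28 was near that share. Decay factors of short-lived mRNA had 5 of 20 higher and 0 lower, with a median of 0.76. They included the exonuclease Xrn1 at 5.73 ± 0.280 against 1.69 ± 0.186 CPM (1.76, SE 0.19, edgeR adjusted p = 0.0241) and the CCR4-NOT scaffold Cnot1 at 52.4 ± 9.19 against 24.1 ± 4.21 CPM (1.12, SE 0.20, edgeR adjusted p = 0.0321). Cnot4 and Cnot6l, further genes of that complex, stood at 1.38 (SE 0.21) and 1.06 (SE 0.22) on the log2 scale, and Cnot6l missed the threshold with the mouse as a block (edgeR adjusted p = 0.0561). With the length and GC term 0 of these 7 calls were left, as for all genes, with edgeR adjusted p of 0.185 for Maf and Cnot4, 0.20 for Xrn1, 0.233 for Ep300, 0.278 for Cnot6l and 0.607 for Cnot1. Leaving out any 1 library other than TERT(High) of mouse 1 also took the 7 calls to 0, as it did the calls among all genes, and leaving out that library gave 13 (12.1% of all genes).

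The heat shock genes, a second response to cell handling, did not follow the immediate early genes across mice. By edgeR 0 of 15 passed, against 8.14% of all genes (median log2 fold change 0.45). In mouse 3, 4 of 15 were lower, against 49.1% of all genes. Hspa1a, an inducible Hsp70 gene whose near-identical copy Hspa1b makes its count uncertain, was at 29.7, 5.76 and 28.6 CPM in TERT(High) and 26.9, 3.90 and 16.1 CPM in TERT(Low) cells. Its low values were those of mouse 2, in which Fos of TERT(Low) cells was highest. In TERT(High) cells both Fos and Hspa1a were highest in mouse 1. Hspa8, the constitutive member, was at 1261 ± 230 and 1143 ± 259 CPM in TERT(High) and TERT(Low) cells.

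The levels of the 10 genes moved together across the 6 libraries, which share mice in pairs and are not independent. Pearson correlations of log2 CPM with the mean of the other 9 genes were 0.97 for Fos, 0.96 for Ier3 and 0.95 for Junb, and lowest for Jund and Btg2 at 0.74 and 0.67. Between single genes the lowest correlation was 0.36, for Jun with Btg2. The TERT(Low) library of mouse 3 was the lowest for 9 of the 10 genes, and correlations without it were not computed. Among all other genes of at least 5 CPM, the 5 with the pattern most like the mean of the 10 over the 6 libraries were Oxa1l, Tbkbp1, Zfp36, Cwc25 and Dpf2, with correlations from 0.98 to 0.996. Oxa1l ran only from 7.76 to 14.3 CPM, against 16.1 to 89.8 CPM for Zfp36, so likeness of order did not mean likeness of range.

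Markers of other cells also differed by mouse. The 10 macrophage markers, among them Clec4f and Cd5l of Kupffer cells, summed to 112 and 52.9 CPM in the TERT(High) and TERT(Low) libraries of mouse 3 and to 17.5 to 22.0 CPM in the other 4. Between the groups 0 of 10 passed in edgeR's main fit, against 8.14% of all genes tested. With the mouse as a block Lyz2 alone passed (log2 ratio 1.30, SE 0.24, edgeR adjusted p = 0.0435), against 9.72% of all genes. Compared by mouse, these markers were highest in mouse 3, where the immediate early genes were lowest. Within mouse 3 both sums were higher in TERT(High) than in TERT(Low) cells. For the immediate early genes they were 234 and 159 CPM. The part of the macrophage markers in the result was not tested.

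**Figure D5:**
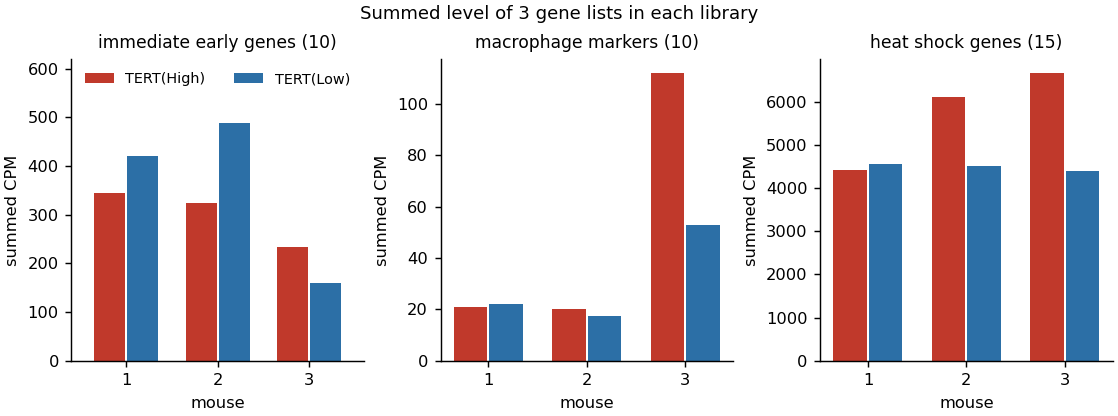
Summed CPM of the 10 immediate early genes, of 10 macrophage markers and of 15 heat shock genes in each library, TERT(High) in red and TERT(Low) in blue. In mouse 3 the immediate early genes sum to 234 and 159 CPM, their lowest values, and the macrophage markers to 112 and 52.9 CPM, their highest.

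Of the sinusoidal endothelial markers 2 of 9 were higher in TERT(High) cells, against 4.43% of all genes tested. These were Lyve1 and Kdr, at edgeR adjusted p of 0.0452 and 0.0277, and of 0.210 and 0.246 with the length and GC term. The list summed to 28.4 to 51.0 CPM in TERT(High) against 20.5 to 23.4 CPM in TERT(Low) libraries. Neutrophil markers summed to 2.59 to 9.09 CPM against 0.381 to 1.78 CPM, with 0 of 6 tested genes past edgeR's threshold (8.14% of all genes). For 5 of the 6 the groups did not overlap, with TERT(High) above, whereas 33.4% of all genes had groups that did not overlap. S100a9 passed in DESeq2 (adjusted p = 0.0215, 25.2% of all genes). Camp, at 0 to 39 counts a library, passed in limma-voom (adjusted p = 0.0266, 18.5% of all genes). Stellate cell markers summed to 142 CPM in TERT(High) of mouse 1, nearly all of it Col1a1, and to 4.43 to 10.3 CPM elsewhere. Erythroid genes summed to 206 CPM in that library and to 17.5 to 61.0 CPM in the rest. These erythroid sums are inflated where reads were counted for both Hba-a1 and Hba-a2. The counts of these genes were identical in every library, each at 64.6 CPM in TERT(High) of mouse 1. T and NK cell markers (0.620 to 1.54 CPM), B cell markers (0 to 0.261 CPM) and cholangiocyte markers (2.05 to 11.7 CPM) were low. What these cells add to the levels of the 10 genes was not tested.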

How the data were processed

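Per the submitters' processing notes, reads were handled with Trim Galore 0.4.0, TopHat2 2.0.13, the genome mm10 and DESeq2. Which tool counted the reads, on which strand and with which gene models, is not given in the sources used here, so reads shared between overlapping genes or close paralogs are uncertain. The deposited table holds raw counts per gene, named by Entrez number and symbol. The second file, the authors' table of results, has a deposited signal, baseMean, the mean of counts over size factors. It also holds the authors' log2 fold change with its standard error, a linear fold ratio, the test score and the p-value, plain and adjusted.

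Counts of all 6 libraries were fitted in edgeR 4.0.16 (R 4.3.3): filterByExpr by group, TMM, robust quasi-likelihood fit of the group alone, Benjamini-Hochberg over all genes, threshold 0.05. The SE is the log2 fold change over the square root of F. log2 CPM has a prior count of 2. Alternatives used DESeq2 1.42.0, limma 3.58.1, other scalings and filters, a length and GC term (splines of 5 degrees of freedom), the mouse as a block and libraries left out, and the scripts were tested on simulated data. The labels name the mouse of each library. Within a mouse, the deviations of both libraries from the means of their groups correlated at -0.089, 0.733 and 0.601 over genes for mice 1, 2 and 3, and the block lowered edgeR's common coefficient of variation from 40.7% to 29.6%. Named are the 10 genes, the up to 4 called genes with the largest change of each related list (or its 2 most abundant), Tert, and the 5 genes with the pattern most like the mean. A gene that this rule names is not reported here. Fosb, Hspa1a and the genes of the cell type lists beyond that rule were named after their values were seen. Members and lists were chosen with earlier results of these data known. Coordinates are from RefSeq GRCm38.p6, transcripts from GENCODE M21 for 12548 tested genes.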

Additional observations from a re-analysis of the deposited data

How the results depend on the processing

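The count of 0 among the 10 genes was the same at an adjusted p under 0.1. It was also the same under each scaling, filter and tool and with the replicate block (at 0.05, 4.87% to 25.2% of all genes called), without TERT(High) of mouse 1 (12.1%) and with DESeq2 without each mouse (22.3%, 8.73% and 3.46% for mice 1, 2 and 3). The length and GC term and every other fit without a library or mouse called 0% of all genes by edgeR, so the count there (0 to 0) says nothing about the 10. The median log2 fold change of the 10 genes was -0.54 to -0.01 with a library or mouse left out. Library totals alone shifted the median of all genes to 0.14 and higher genes from 54.4% to 97.1% of calls (43.2% with upper quartiles). The median SD of log2 CPM was 0.23 to 1.0 with libraries left out, 0.33 without TERT(Low) of mouse 3. Calls among related lists were 7 in the main fit, 23 with DESeq2, 18 with limma-voom and 8 with the block. The same settings called 8.14%, 25.2%, 18.5% and 9.72% of all genes. The length and GC correction, blocked or not, left 0 of these calls. With a library or mouse left out there were 0 to 13: 13 without TERT(High) of mouse 1 and 0 in each other case. The causes were not tested.

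No gene had a called direction, and signs changed as follows. With the replicate block Fos was at 0.16 and Atf3 at 0.091. With the length and GC term Atf3 was at 0.20 and Ier2 at 0.081, and with that term and the block Fos was at 0.36, Atf3 at 0.31, Ier2 at 0.13 and Ier3 at 0.055. With library totals Atf3 was at 0.13. With libraries or mice left out the range was -1.12 to 0.22 for Fos, -0.15 to 0.51 for Jun, -0.11 to 0.24 for Jund, -0.25 to 1.03 for Egr1 and -0.39 to 0.38 for Atf3. Dusp1, Junb and Btg2 kept a negative sign in all 19 settings. Depth was lowest for Ier3, at 6 to 78 counts a library.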
